A study of Mus musculus with 6 samples.

Results

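Cd69 and 8 other genes of lymphocyte activation and egress were followed in cultured mouse cells of acute lymphoblastic leukaemia of the B lineage (B-ALL) after exposure to dihydroartemisinin (DHA), an antimalarial of the artemisinin class. The 9 genes (Cd69, S1pr1, Klf2, Ccr7, Cd44, Cd86, Cd40, Cd83 and Il2ra) were taken from 22180 genes with a single-gene probe set on the array. They were chosen by name with earlier results of these data known, and Cd69 was chosen for its high values after DHA, so its difference is described here and not tested. The probe set standing for a gene was selected on its mean over all 6 arrays, but each of the 9 had only 1 probe set. Of the 9, 8 passed the filter on dim genes, a 6-array mean of at least 4.52 on the log2 scale, and Cd86 did not. With them, 15526 genes were tested.

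Both groups held BCR-ABL-positive B-ALL cells in culture. The 3 DHA samples received 312 nM DHA for 4 h and the 3 vehicle samples received dimethyl sulphoxide (DMSO), and total RNA was measured on arrays. The extraction protocol also names 2 h, whereas the treatment protocol and the DHA titles give 4 h. The growth protocol names p185+ and p185T315I+ cells and Arf-/- and p53-/- genotypes, where p185 is a form of the BCR-ABL fusion kinase, T315I is a mutation in it, and Arf and p53 are tumour suppressors. Which of these lines, and how many clones, gave the 6 samples cannot be read from the labels. Separate cultures are not named either, so p-values here cover only sample-to-sample spread, and that spread may be technical. Titles of vehicle replicate 3 and DHA replicate 2 share a code whose meaning the labels leave unstated.

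Lymphocytes leave lymphoid tissue by following the lipid sphingosine 1-phosphate (S1P), which they sense through the receptor S1PR1. CD69, a C-type lectin that appears on the surface early after activation, binds S1PR1 and draws it into the cell, so that activated lymphocytes are held back. The transcription factor KLF2 drives S1pr1 in resting lymphocytes, and CCR7 guides cells towards the chemokines of lymph nodes. CD44 binds hyaluronan, CD86 and CD40 take part in costimulation between B and T cells, CD83 stabilises CD86 and MHC class II on the surface, and IL2RA (CD25) is the alpha chain of the interleukin-2 receptor and is also a marker of B-cell precursors.

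The arrays carried a B-lineage profile. Of 5 measured mature B cell markers, Cd37 (12.06 with vehicle and 12.01 with DHA, mean log2 intensity) and Tnfrsf13c (10.13 and 9.96) were bright. Ms4a1 (7.10 and 7.15) and Cr2 (5.68 and 5.82) were dimmer, and Fcer2a lay under the filter. Of 13 measured markers of B-cell precursors, 13 lay above the filter, among them Cd79a (12.71 and 12.72) and Igll1 (13.04 and 12.92). Vpreb1 (4.78 and 4.79) lay only just above it. Limma called 0 of the 13, but 3 (23.1%) were lower at an unadjusted p under 0.05, beside 12% of all tested genes in either direction. These were Rag2, a recombinase gene (difference -0.53), Cd24a (-0.16) and Igll1, a surrogate light chain gene (-0.12). The groups did not overlap in 4 of the 13 (30.8% beside 15.8% of all tested genes), these 3 and Ebf1, which was higher with DHA (0.13). Their part in the results was not tested. Among markers of T and NK cells, 5 of 13 lay under the filter, including Cd3e, Cd3g and Cd8a. The brightest of these T and NK markers, Cd2, read 9.45 with vehicle and 9.41 with DHA. Their mean ranged from 5.12 to 5.15 on vehicle arrays and from 5.15 to 5.18 on DHA arrays. The mean of myeloid markers, of which 4 of 11 lay under the filter, ranged from 4.82 to 4.91 and from 4.79 to 4.87. The brightest of them, Cd68, read 7.44 with vehicle and 7.34 with DHA. The mean of dendritic cell markers ranged from 4.83 to 4.89 and from 4.81 to 4.87. The remaining lists had mean levels from 7.61 to 7.98 with vehicle and from 7.62 to 7.94 with DHA (mature B cell), from 6.15 to 6.23 and from 6.10 to 6.14 (plasma cell), from 5.12 to 5.14 and from 5.15 to 5.21 (erythroid cell and megakaryocyte), and from 5.986 to 6.007 and from 6.008 to 6.088 (stromal cell). The means of the plasma cell, erythroid and stromal lists thus did not overlap between the groups, but they nearly touched. The nearest vehicle and DHA arrays read 6.149 and 6.139 (plasma cell), 5.139 and 5.149 (erythroid), and 6.0071 and 6.0076 (stromal). The plasma cell and erythroid means also include a gene under the filter. The part of these lists in the results was not tested. Array intensity has an offset, so no marker reads 0. No marker of another cell type was called changed. At an unadjusted p under 0.05, 2 of 7 stromal markers were higher (28.6% beside 12% of all tested genes). These were Cdh5 and the brightest stromal marker, Pecam1 (9.34 with vehicle and 9.52 with DHA). So were 1 of 8 tested T and NK markers (Nkg7) and 1 of 5 dendritic cell markers (Zbtb46). In bulk RNA, a change in the number of cells of a type and a change in RNA per cell cannot be told apart.

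Cd69 was higher on every DHA array than on any vehicle array. Its log2 intensity was 9.35, 9.45 and 8.99 on vehicle arrays 1 to 3 and 10.88, 10.57 and 10.99 on DHA arrays 1 to 3. The 3 DHA values lay together and apart from the 3 vehicle values, with 1.12 between the lowest DHA and the highest vehicle array, against ranges of 0.45 within vehicle and 0.43 within DHA. Group means were 9.26 ± 0.24 and 10.81 ± 0.22 (SD, n = 3 per group). The difference of 1.55 (standard error, SE, 0.15; 95% interval 1.19 to 1.91) corresponds to a 2.93-fold higher intensity with DHA (2.29-fold to 3.75-fold). It was the 8th largest rise among the 15526 tested genes. The single pair of samples with the shared title code differed by 1.57, from vehicle replicate 3, the lowest vehicle array for Cd69, to DHA replicate 2, the lowest DHA array. In the fit across all genes with limma, 14 genes (0.0902%) were called, meaning a p of 0.05 or less after Benjamini-Hochberg adjustment, and Cd69 was 1 of them. With 1 array left out, limma called 24 genes without DHA replicate 2 and 0 without any other single array (1356 to 1710 genes then had an unadjusted p under 0.05). Since Cd69 was picked for this difference, nothing further is read from that call.

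**Figure D1:**
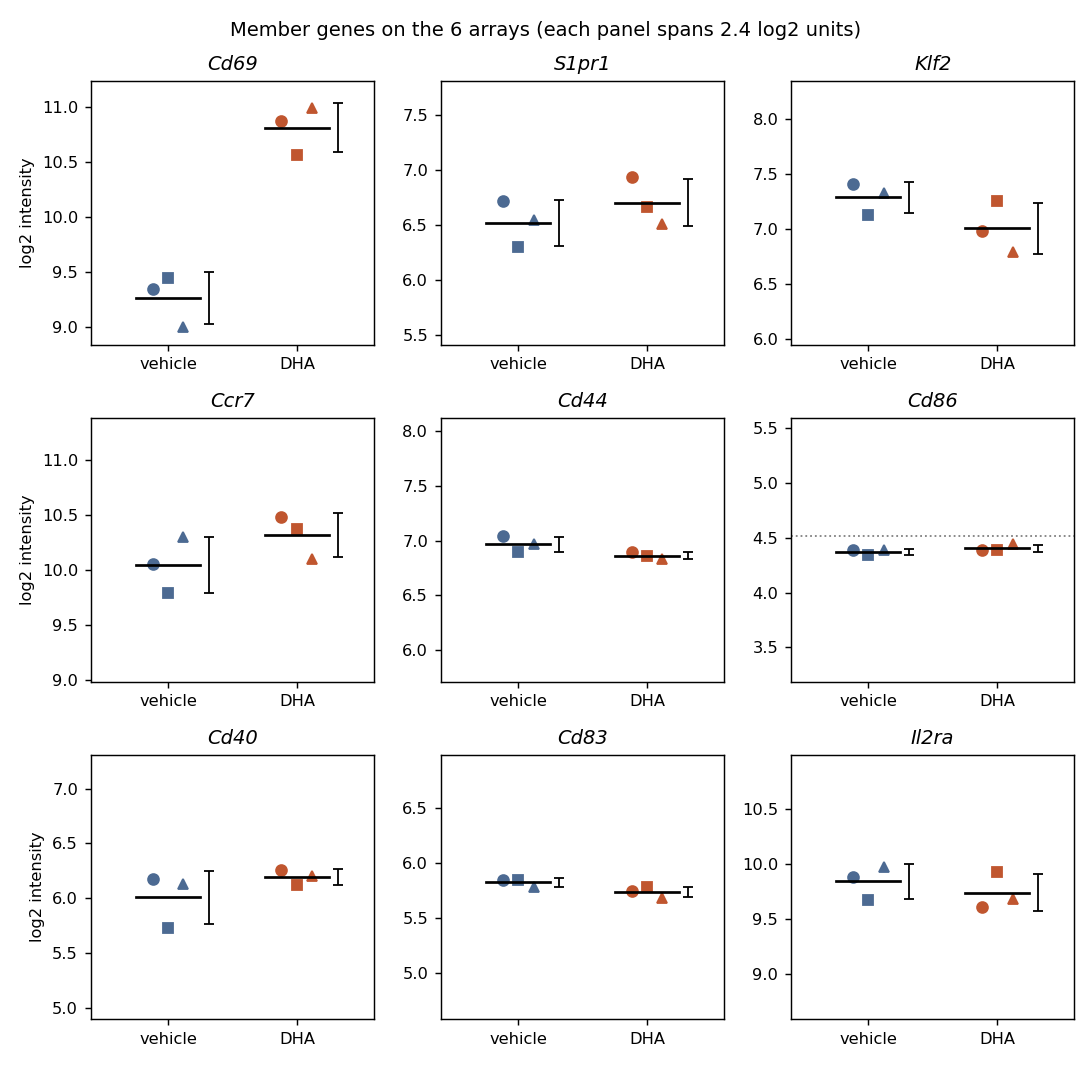
Log2 intensity of the 9 genes on each array (circle, square and triangle are replicates 1, 2 and 3; horizontal line, group mean; bar beside it, SD; n = 3 per group). Every panel spans the same height, and the dotted line in the Cd86 panel is the filter at 4.52. The Cd69 groups lie 1.12 apart, whereas the other panels overlap or nearly touch.

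None of the other members followed Cd69 at a size the fit could call. Of the 7 tested, 3 were higher and 4 were lower with DHA, and 0 passed limma's test (adjusted p over all tested genes at or under 0.05, reached by 0.0902% of them). At an unadjusted p under 0.05, 0 of the 7 passed, where 12% of all tested genes did. The 2 groups did not overlap in Cd44 and Cd83, both lower with DHA, beside 15.8% of all tested genes. Their differences lay between 0.089 and 0.28 in size, and their 95% intervals lay between -0.59 and 0.63, so fold changes beyond 0.666 or 1.54 fell outside the interval of each of the 7 genes. A failed test does not show that these genes stayed the same.

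S1pr1, the S1P receptor that CD69 binds, read 6.71, 6.30 and 6.54 with vehicle and 6.93, 6.66 and 6.51 with DHA. DHA replicate 1 was the only DHA array above all vehicle arrays, and DHA replicate 3 lay among them. The means were 6.52 ± 0.21 and 6.70 ± 0.22 (SD, n = 3 per group), a difference of 0.18 (SE 0.14; 95% interval -0.15 to 0.52; limma adjusted p = 0.645). Of S1pr1's relatives, S1pr2 differed by 0.12 (limma adjusted p = 0.584) and S1pr4, another lymphocyte S1P receptor, by -0.011 (limma adjusted p = 0.96). Across 16 tested genes of S1P receptors, S1P metabolism and their signalling, 7 were higher and 9 lower, and 0 were called. At an unadjusted p under 0.05, 4 of the 16 passed (25% beside 12% of all tested genes), 2 higher and 2 lower. The groups did not overlap in 4 of the 16 (25% beside 15.8% of all tested genes). The median difference of these 16 was -0.0061, beside 0.0027 for all tested genes, and it lay between -0.026 and 0.023 when 1 array was left out. The S1P lyase gene Sgpl1, whose product degrades S1P, was lower on all DHA arrays (7.33, 7.53 and 7.31) than on the vehicle arrays (7.58, 7.63 and 7.60), by 0.21 (SE 0.068), at a limma adjusted p of 0.304. Gnai2, the G protein subunit through which S1PR1 signals, differed by -0.023 (SE 0.042). Grk2 was not analysed here.

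Klf2 had the largest difference of the 7, and it pointed down. Its log2 intensity was 7.41, 7.13 and 7.32 with vehicle and 6.98, 7.25 and 6.79 with DHA. DHA replicates 1 and 3 lay under every vehicle array, while DHA replicate 2 lay between them, so the groups overlapped. The means were 7.29 ± 0.14 and 7.01 ± 0.23 (SD, n = 3 per group), a difference of -0.28 (SE 0.13; 95% interval -0.59 to 0.025; limma adjusted p = 0.456). Within the pair of samples that share a title code, Klf2 differed by -0.071. Without DHA replicate 2 the difference was -0.40, and without DHA replicate 3 it was -0.17.

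The 250 bases before the Klf2 start (RefSeq, GRCm38.p6, chr8:72318812-72319061, plus strand) are shown because they hold a match to the motif of the MEF2 factors, which act below the kinase ERK5 on this gene. Capitals mark, in order, a match to the EGR motif GCGNGGGCG, the MEF2 match and, on the other strand, the KLF motif CACCC, read here as GGGTG.
Klf2: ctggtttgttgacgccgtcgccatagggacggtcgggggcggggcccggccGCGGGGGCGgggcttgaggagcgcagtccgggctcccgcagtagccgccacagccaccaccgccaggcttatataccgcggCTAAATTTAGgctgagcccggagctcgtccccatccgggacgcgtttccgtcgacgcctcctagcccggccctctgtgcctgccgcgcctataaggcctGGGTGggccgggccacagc
The MEF2 motif was searched as CTA, any 4 bases and TAG, and its match runs from 118 to 109 bases before the start. The EGR match lies at 199 to 191 bases and the KLF match at 19 to 15 bases before the start, and none of the 3 overlaps another. On both strands of 32851 RefSeq promoter windows of 250 bases, 3.20% held the MEF2 motif, 4.70% the EGR motif and 52.0% the KLF motif. A match describes these letters and does not show that a factor binds there. No match was found in the window for AP-1 (TGANTCA), the cyclic AMP response element (TGACGTCA), C/EBP-ATF (TGATGCAA) or the NF-kB motif.

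The ERK5 gene Mapk7 differed by 0.038 (SE 0.043), the MEF2 gene Mef2c by -0.011 (SE 0.058) and Foxo1, a transcription factor that promotes Klf2 expression in lymphocytes, by -0.0054 (SE 0.060), with limma adjusted p of 0.761, 0.961 and 0.981. Of 19 tested genes of Klf2 regulation and of the KLF family, 12 were higher and 7 lower. Limma called 0 of them, and 4 passed at an unadjusted p under 0.05, all higher, beside 12% of all tested genes. The 4 were Foxp1, a forkhead transcription factor gene (difference 0.22, SE 0.049, limma adjusted p = 0.166), and the family members Klf6, Klf7 and Klf9. Klf6 differed by 0.34 (SE 0.063, limma adjusted p = 0.126), Klf7 by 0.32 (limma adjusted p = 0.312) and Klf9 by 0.23 (limma adjusted p = 0.35). The groups did not overlap in 3 of the 19, namely Foxp1, Klf6 and Klf4 (15.8%, the same share as of all tested genes). The median difference of the 19 was 0.020, and it lay between 0.020 and 0.054 when 1 array was left out, the highest without DHA replicate 2. It was 0.037 without vehicle replicate 3, 0.031 without vehicle replicate 1 and 0.031 without DHA replicate 1.

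Ccr7 is the receptor for the chemokines CCL19 and CCL21. It read 10.05, 9.79 and 10.30 with vehicle and 10.48, 10.37 and 10.10 with DHA. DHA replicates 1 and 2 lay above all vehicle arrays and DHA replicate 3 did not. The means were 10.05 ± 0.25 and 10.32 ± 0.20 (SD, n = 3 per group), with a difference of 0.27 (SE 0.15; 95% interval -0.079 to 0.63; limma adjusted p = 0.519). Without vehicle replicate 2, the lowest array, the difference was 0.15, and without vehicle replicate 3 it was 0.40.

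Homing receptors and adhesion molecules around Ccr7 were also without a call. Cxcr4, the receptor that holds B-cell precursors in bone marrow, differed by 0.11 (SE 0.074; limma adjusted p = 0.614), Gpr183, an oxysterol receptor that positions B cells, by 0.10 (SE 0.056; limma adjusted p = 0.531) and the integrin subunit gene Itga4 by -0.019 (SE 0.067; limma adjusted p = 0.935). Of 16 tested genes in the homing and adhesion list, 11 were higher and 5 lower, and 0 were called. At an unadjusted p under 0.05, 3 passed (18.8% beside 12% of all tested genes), 2 higher and 1 lower. The groups did not overlap in 5 of the 16 (31.2% beside 15.8%), 3 higher and 2 lower. The median difference of the list was 0.035. That median was 0.064 without vehicle replicate 1 and 0.019 without vehicle replicate 2. Ccl19 and Ccl21a were not analysed here.

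**Figure D2:**
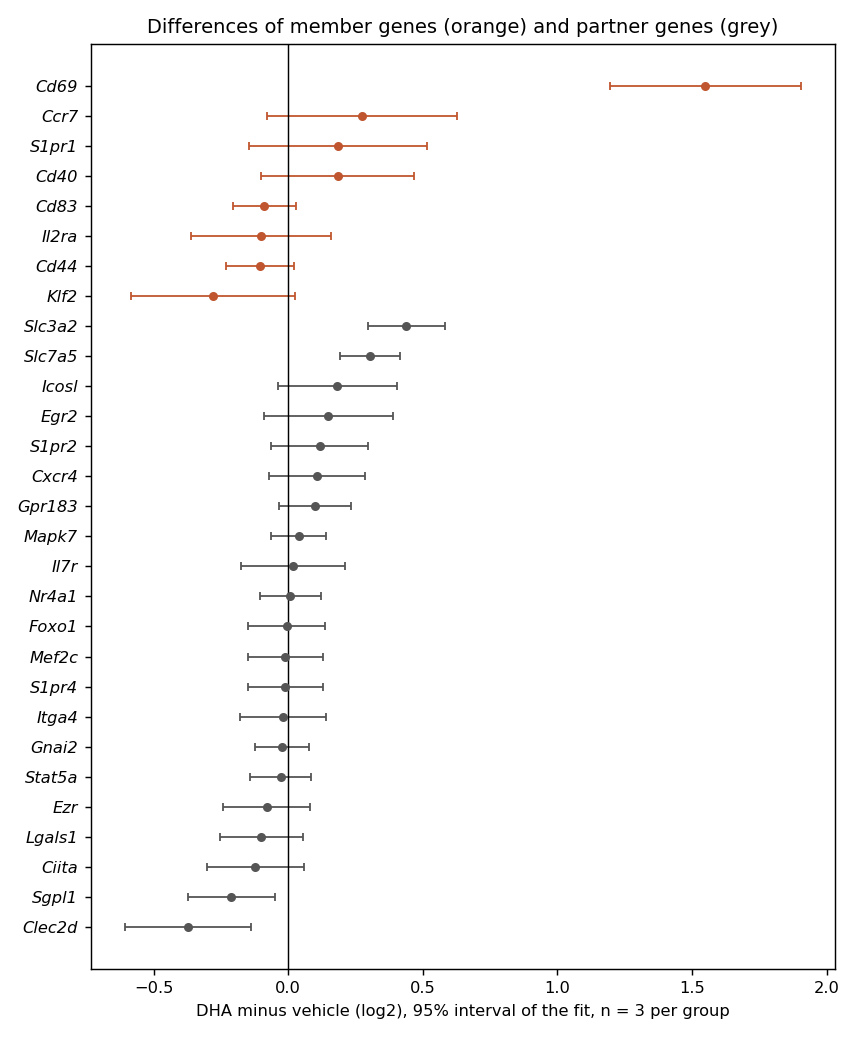
Difference between DHA and vehicle on the log2 scale (points) with the 95% interval of the fit (bars, n = 3 per group, unadjusted for the number of genes) for the 8 tested members in orange and 21 tested partner genes in grey. The Cd69 interval runs from 1.19 to 1.91, and the highest limit among the other members is 0.63, for Ccr7.

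Cd44, the hyaluronan receptor and a marker of activated and memory lymphocytes, was slightly lower with DHA. It read 7.04, 6.90 and 6.96 with vehicle and 6.89, 6.86 and 6.83 with DHA. Every DHA array lay under every vehicle array, but the gap between the groups was 0.0027, less than the SD of either group (0.070 and 0.032). The difference was -0.10 (SE 0.053; 95% interval -0.23 to 0.021; limma adjusted p = 0.496; exact two-sided permutation p = 0.1, the smallest that 3 against 3 arrays allow). Any groups of 3 that do not overlap give this p, so it adds nothing to the separation. The same permutation p was 0.2 for Klf2 and Ccr7, 0.3 for Cd40, 0.5 for S1pr1 and Il2ra and 0.6 for Cd86. Ezr, which encodes ezrin, a linker between CD44 and the actin cytoskeleton, differed by -0.080 (SE 0.068; limma adjusted p = 0.685). Among 10 tested genes of CD44 linkers, sheddases and hyaluronan metabolism, 2 were higher and 8 lower, 0 were called and the median difference was -0.092. That median was -0.046 without DHA replicate 2 and -0.051 without vehicle replicate 2.

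The costimulatory genes did not move together. Cd86 read 4.39, 4.34 and 4.39 with vehicle and 4.39, 4.39 and 4.44 with DHA, and 4 of the 6 arrays hold exactly the same value. Its 6-array mean, 4.39, lay 0.13 under the filter, so Cd86 was not tested. The dimmest member above the filter, Cd83, had a mean of 5.78. Cd80, the other ligand of CD28, lay under the filter too.

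Cd40, the receptor through which T cells license B cells, read 6.17, 5.73 and 6.13 with vehicle and 6.26, 6.12 and 6.20 with DHA. DHA replicates 1 and 3 lay above all vehicle arrays, and vehicle replicate 2 was the low array. The means were 6.01 ± 0.24 and 6.19 ± 0.072 (SD, n = 3 per group), a difference of 0.18 (SE 0.12; 95% interval -0.10 to 0.47; limma adjusted p = 0.586). Without vehicle replicate 2 the difference was 0.044. Of 8 tested genes of CD40 signalling, 5 were higher and 3 lower, 0 were called, 4 (50%, beside 12% of all tested genes) passed at an unadjusted p under 0.05 (3 higher, 1 lower) and the median difference was 0.092. Without DHA replicate 3 that median was 0.017, without vehicle replicate 2 it was 0.041, without DHA replicate 2 it was 0.14, and it was 0.15 when vehicle replicate 3 and DHA replicate 2 were both left out. Traf3 was not analysed here.

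Cd83 read 5.85, 5.85 and 5.78 with vehicle and 5.75, 5.78 and 5.68 with DHA. The groups were separate by 0.0015, a gap smaller than the SD of either (0.040 and 0.049). The difference was -0.089 (SE 0.049; 95% interval -0.21 to 0.028; limma adjusted p = 0.526; exact two-sided permutation p = 0.1, the smallest possible and fixed by the separation). Icosl, the ligand of the T-cell costimulator ICOS, differed by 0.18 (SE 0.093; limma adjusted p = 0.496), and Ciita, the master regulator of MHC class II genes, by -0.12 (SE 0.075; limma adjusted p = 0.564). Of 13 tested genes of costimulation and antigen presentation, 5 were higher and 8 lower, 0 were called by limma, 0 passed at an unadjusted p under 0.05 and the median difference was -0.046 (0.0070 without vehicle replicate 3).

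Il2ra read 9.89, 9.67 and 9.98 with vehicle and 9.61, 9.93 and 9.68 with DHA. The groups overlapped, with DHA replicate 1 alone under all vehicle arrays. The means were 9.84 ± 0.16 and 9.74 ± 0.17 (SD, n = 3 per group), a difference of -0.10 (SE 0.11; 95% interval -0.36 to 0.16; limma adjusted p = 0.748). The 250 bases before its start (RefSeq, GRCm38.p6, chr2:11642542-11642791, plus strand) are shown for their NF-kB matches, since NF-kB subunit genes stand in the list of CD40 signalling. Capitals mark the KLF motif CACCC, 220 to 216 bases before the start, and 3 overlapping NF-kB matches that together span 201 to 191 bases before it.
Il2ra: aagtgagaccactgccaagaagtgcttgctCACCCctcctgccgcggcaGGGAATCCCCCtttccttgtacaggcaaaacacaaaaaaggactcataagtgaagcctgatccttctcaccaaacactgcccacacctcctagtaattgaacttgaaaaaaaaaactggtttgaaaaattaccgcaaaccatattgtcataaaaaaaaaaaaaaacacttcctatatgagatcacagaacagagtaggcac
The NF-kB motif was found on both strands at 201 to 192 bases and on the opposite strand at 200 to 191 bases, and 7.25% of all 250-base windows held at least 1 match. The promoter table matched 3 of the 9 members, and the third, Cd44, held none of the 7 motifs. For Cd69, S1pr1, Ccr7, Cd86, Cd40 and Cd83 no promoter was printed.

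The list of interleukin-2 receptor and common gamma chain genes, which also holds signalling genes below the receptors, had 11 of 12 tested genes lower. Of all 15526 tested genes, 7572 were lower. In the list the other 1 was higher, 0 were called and the median difference was -0.064. The receptor genes Il2rb, Il4ra, Il21r and Il15ra differed by -0.032, -0.060, -0.039 and -0.15. Il7r, the interleukin-7 receptor gene of B-cell precursors, was the 1 higher gene, at 0.018 (SE 0.081; limma adjusted p = 0.951). Stat5a, which encodes a transcription factor below these receptors, differed by -0.028 (SE 0.047; limma adjusted p = 0.847). At an unadjusted p under 0.05, 2 of the 12 passed (16.7% beside 12% of all tested genes), both lower. These were Socs3 (-0.33) and Cish (-0.31), neither of them a receptor gene. Il2rg and Jak3 were not analysed here.

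**Figure D3:**
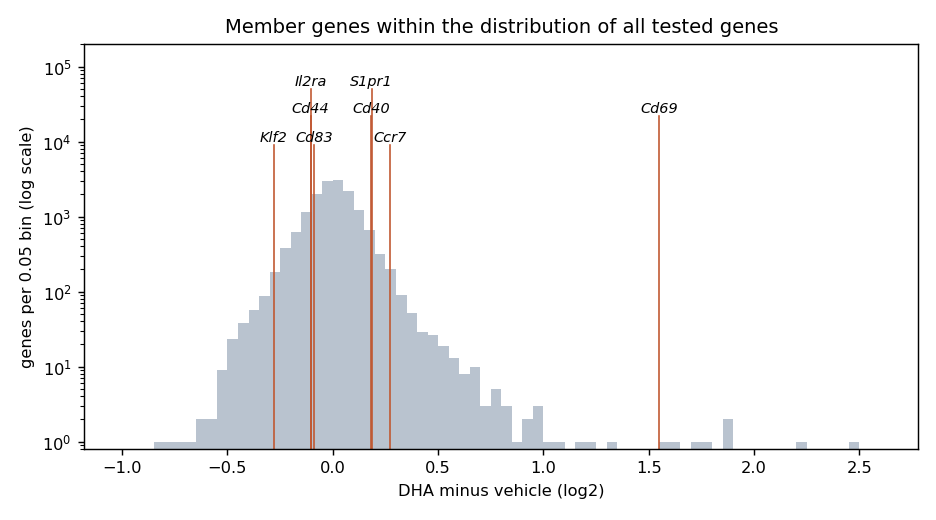
Number of tested genes (log scale) by difference between DHA and vehicle in bins of 0.05 on the log2 scale, with the 8 tested members as vertical lines. Cd69 stands at 1.55 in the sparse upper tail, and the other 7 stand between -0.28 and 0.27.

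Against all tested genes, differences at least as large in size as that of Cd69 occurred in 0.0515% of genes. The same share was 4.10% for Klf2, 4.44% for Ccr7, 12.3% for S1pr1 and 12.4% for Cd40. For Il2ra and Cd83 it was 33.0% and 38.7%, and Cd44 lay just under Il2ra. Klf2 and Ccr7 were thus in the outer part of the distribution by size, but their groups overlapped.

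Genes known to follow antigen receptor signals, as Cd69 does, were mixed. Egr1, an immediate early transcription factor, rose from 6.52 ± 0.21 to 8.42 ± 0.21 (SD, n = 3 per group), by 1.90 (SE 0.14; limma adjusted p = 0.0225), and its groups were 1.49 apart. This call was lost when any single array other than DHA replicate 2 was left out, since 0 genes were then called. Egr2 read 5.76, 5.50 and 5.77 with vehicle and 5.99, 5.76 and 5.73 with DHA, a difference of 0.15 (SE 0.10; limma adjusted p = 0.604). Nr4a1, which encodes the nuclear receptor NUR77, read 6.61, 6.51 and 6.59 with vehicle and 6.59, 6.58 and 6.56 with DHA, a difference of 0.0077 (SE 0.047; limma adjusted p = 0.966). Of 21 tested genes in that list, 16 were higher and 5 lower, Egr1 was the 1 call (0.0902% of all tested genes were called), and the median difference was 0.15. At an unadjusted p under 0.05, 8 of the 21 passed (38.1% beside 12% of all tested genes; 6 higher, 2 lower). Without DHA replicate 1 the median was 0.068, and without vehicle replicate 2 it was 0.088.

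CD69 is reported to associate with the amino acid transporter LAT1-CD98, whose subunits are encoded by Slc7a5 and Slc3a2. Slc3a2 read 11.62, 11.66 and 11.56 with vehicle and 12.12, 11.95 and 12.08 with DHA, a difference of 0.44 (SE 0.060; limma adjusted p = 0.066). Slc7a5 read 11.94, 11.96 and 11.94 with vehicle and 12.27, 12.19 and 12.30 with DHA, a difference of 0.30 (SE 0.047; limma adjusted p = 0.0915). Both were separate between the groups and both missed the threshold. Lgals1, which encodes the CD69 ligand galectin-1, differed by -0.0996 (SE 0.064; limma adjusted p = 0.583). Of 9 tested genes of CD69 partners and of the Clec2 and Klrb lectins, 4 were higher and 5 lower, and 0 were called. At an unadjusted p under 0.05, 4 of the 9 passed (44.4% beside 12% of all tested genes). Of these, Slc3a2 and Slc7a5 were higher and Clec2d and Klrb1f lower. The groups of these 4 did not overlap (44.4% beside 15.8% of all tested genes). The median difference of the 9 was -0.013. That median was -0.056 without DHA replicate 3 and 0.056 without DHA replicate 1.

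**Figure D4:**
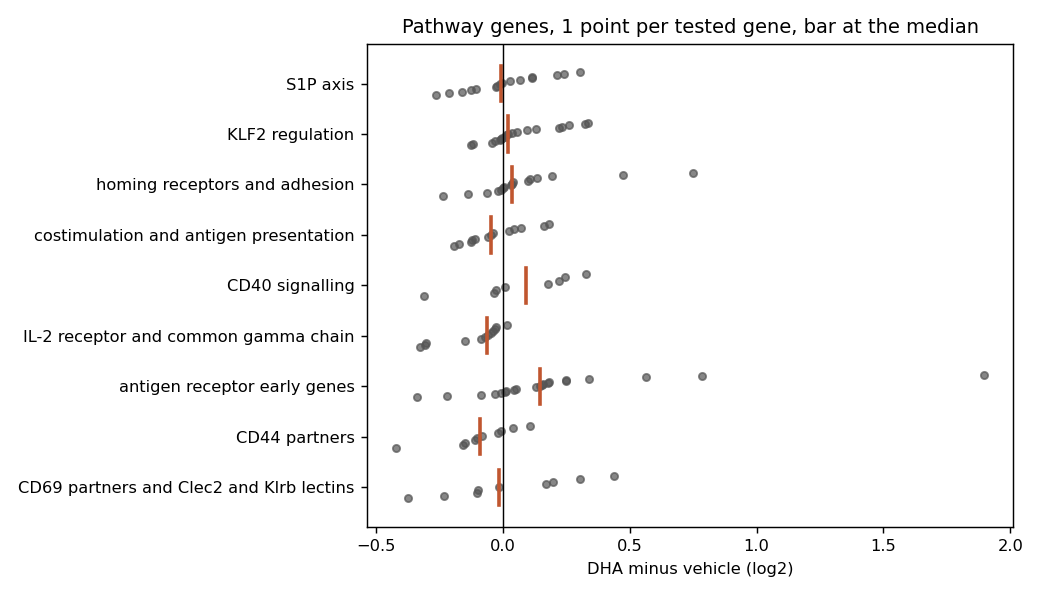
Difference between DHA and vehicle on the log2 scale for each tested gene of the 9 pathway lists (points), with the median of each list (orange bar). Medians run from -0.092 for CD44 partners to 0.15 for antigen receptor early genes, and Egr1, at 1.90, is the 1 called gene.

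Over the 9 lists together, 124 genes other than the members were tested, 63 higher and 61 lower. Limma called 1 of them (Egr1), 30 (24.2%) passed at an unadjusted p under 0.05 beside 12% of all tested genes, and 30 had groups that did not overlap (24.2% beside 15.8%). The lists were written with earlier results of these data known, so these shares support nothing about the lists.

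The 5 genes closest to Cd69 across the 6 arrays were Nupr1, Atf3, Sesn2, H2aw and Slc1a4. Likeness was the root mean square difference between 2 genes after each was centred on its own 6-array mean, in log2 units, so it weighs the size of the DHA difference above all. The distance was 0.17 for Nupr1, a stress-induced transcription regulator, 0.19 for the transcription factor gene Atf3, and 0.198 for Sesn2, whose product restrains mTORC1. It was 0.20 for both H2aw, a histone H2A gene, and Slc1a4, a neutral amino acid transporter gene. A gene with the same value on all arrays would have a distance of 0.797. Of the 5, 4 were called by limma, beside 0.0902% of all tested genes, and H2aw was not (difference 1.34, limma adjusted p = 0.0636). The 5 were picked on these same arrays for likeness to Cd69, itself chosen for its rise. Large differences were thus built in, and nothing further is read from these calls. The 4 calls, too, were lost when any single array but DHA replicate 2 was left out. In each of the 5, as in Cd69, DHA replicate 2 was the lowest DHA array and vehicle replicate 3 the lowest vehicle array. In each of the 5, vehicle replicate 1 was the highest vehicle array, whereas for Cd69 vehicle replicate 2 was. Likeness over the same 6 arrays favours a shared order of arrays. The members lay farther off, with Ccr7 nearest at 0.727 and Klf2 farthest at 0.97.

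**Figure D5:**
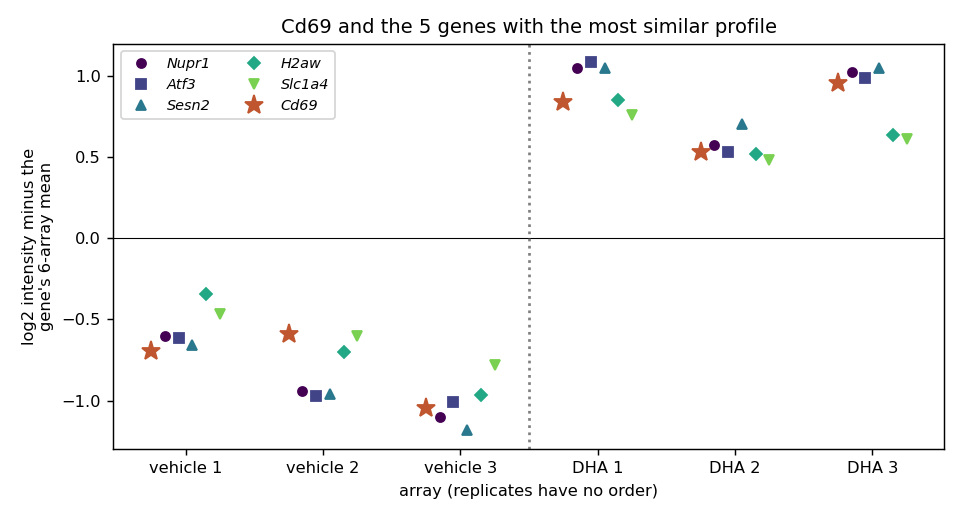
Log2 intensity minus the gene's own 6-array mean on each array for Cd69 (stars) and the 5 genes nearest to it by root mean square difference. All 6 genes lie below 0 on the 3 vehicle arrays and above 0 on the 3 DHA arrays, with DHA replicate 2 the lowest of the DHA arrays in each.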

How the data were processed

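The authors deposited 1 log2 intensity for each probe set on each array. RMA, which summarises the probes of a set, and Partek 6.6 are named in the submitters' processing notes, without settings. RMA shrinks the fold changes of dim probe sets. No scanner files were used, and 3 arrays per group limit the precision. Probe sets with 1 gene symbol (23521 of 41345; 1814 had several and 16010 were unnamed here) were named through the platform annotation, updated by Entrez identifier to RefSeq (23328 matched). The probe set brightest over 6 arrays stood for each gene, and genes under the 30th percentile of gene means (4.52) were left out. DHA and vehicle were compared with limma 3.58.1 in R 4.3.3 (lmFit, eBayes, two-sided, Benjamini-Hochberg over 15526 genes). The script was tested on simulated data. Intervals are 95% and unadjusted.

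The members, lists and motifs were chosen with earlier results of these data known. The rule named the members, 25 fixed partner genes (4 of them without a test), called list genes and the 5 genes most like Cd69. The MEF2 motif and the genes beside Cd69 were added after the values were seen. Alternatives were leaving out arrays, other filters, scalings, probe set rules, moderation and thresholds, and a term for the shared title code.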

Additional observations from a re-analysis of the deposited data

How the results depend on the processing

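Of the members other than Cd69, 0 were called by limma in the main setting and in each of 17 alternatives, in which 0 to 2 of them passed at an unadjusted p under 0.05. Cd86 was tested only with no filter (difference 0.034, limma adjusted p = 0.833). The Cd69 difference stayed between 1.42 and 1.67 in 14 alternatives. No tested member changed sign in its alternatives, but leaving out 1 array moved the difference from 0.068 to 0.28 for S1pr1, 0.15 to 0.40 for Ccr7, 0.044 to 0.26 for Cd40, -0.40 to -0.17 for Klf2, -0.20 to -0.036 for Il2ra, -0.14 to -0.069 for Cd44 and -0.11 to -0.062 for Cd83. The count of all called genes, 14 (13 up and 1 down), was 0 to 24 on leaving out 1 array, with 0 in each case but that without DHA replicate 2. Keeping dim genes gave 5 and the stricter 50th percentile filter 62. It was 52 after median centring (41 up, 11 down), 63 after quantile normalization (52 up, 11 down), 62 with trend and robust moderation (50 up, 12 down), 80 at an adjusted p at or under 0.1 (60 up, 20 down), 41 with the shared title code as a term and 0 without both of its samples, where 1569 genes passed at an unadjusted p under 0.05. Some settings had fewer arrays or genes, and the cause of the changed counts was not tested. No paired analysis was possible because the groups share only 1 title number.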

Other observations

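Cd69 lies on chromosome 6 among genes of other C-type lectins (order from RefSeq, GRCm38.p6). Of the 5 protein-coding genes on either side, 8 of 10 were on the array with a probe set of their own and 3 passed the filter. This set was chosen after the values were seen and was not tested as a set. On the side of Clec2d, the nearest neighbour, 4 genes were measured and each had lower values on all DHA arrays than on all vehicle arrays, 2 of them under the filter. Of all 15526 tested genes, 15.8% had groups that did not overlap in either direction, and 1272 were separate and lower with DHA. The 2 genes under the filter are not part of these counts. Clec2d, which encodes a ligand of an inhibitory NK-cell receptor, read 10.47, 10.12 and 10.17 with vehicle and 9.94, 9.89 and 9.81 with DHA, a difference of -0.37 (SE 0.099; limma adjusted p = 0.23). Klrb1f, an NK-receptor gene, differed by -0.23 (SE 0.052; limma adjusted p = 0.17). Clec2e (-0.36) and Clec2g (-0.36) lay under the filter and were not tested. On the other side, Clec2m differed by 0.0092 (limma adjusted p = 0.974), and Clec12a (0.017), Clec12b (-0.046) and Clec1b (-0.066) lay under the filter with overlapping groups. Clec2 genes are close relatives, and probes that read more than 1 of them were not checked.

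Among the pathway lists, genes outside the naming rule with large differences were picked after their values were seen. Rgs1, which dampens chemokine receptor signalling in B cells, differed by 0.75 (SE 0.20; limma adjusted p = 0.237), and Rgs2, of the same family, by 0.47 (SE 0.079; limma adjusted p = 0.105). The transcription factor gene Bhlhe40 differed by 0.78 (SE 0.15; limma adjusted p = 0.126) and Hyal2, a hyaluronidase gene, by -0.42 (SE 0.069; limma adjusted p = 0.104). Ier2, from the list of antigen receptor early genes, differed by 0.57 (SE 0.15, limma adjusted p = 0.24). None of these passed the test over all genes. Their groups did not overlap, as in 15.8% of all tested genes in either direction. Since they were picked for large differences, nothing is read from that separation.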
